A study of Mus musculus with 18 samples.

Results

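CTCF occupancy was compared in hearts that had lost *Trdn-as* or *Mettl3*, using 2 CTCF ChIP-seq libraries a knockout, 4 of the 18 samples of the series, and the 2 WT CTCF libraries were set beside them. ChIP-seq counts the DNA fragments pulled down with an antibody, here an antibody against CTCF that served as a control in a study of RNA polymerase II (Pol II). The comparison takes in every tested peak, and the peaks named singly were in part picked by their values. The table lists 101256 peaks found in any library, of which 99188 lie on chromosomes 1 to 19, and the 59341 of these that reached 10 normalized reads in 2 or more of the 6 CTCF libraries were tested.

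The *Trdn-as* KO mice (trdn-as KO in the labels) are homozygous for a polyA signal inserted with Cas9 into the first exon of *Trdn-as*, the antisense RNA gene inside *Trdn*, in all cells. They descend from injected embryonic stem cells and were backcrossed to C57BL/6, so the allele and other heritable differences of the line cannot be told apart. The *Mettl3* KO mice (Mettl3lox/lox:alphaMHC-MerCreMerpos) received tamoxifen on 7 days at 10 to 16 weeks of age and lose *Mettl3*, the catalytic subunit of the m6A RNA methyltransferase, in cardiomyocytes, where the alpha-MHC promoter drives the Cre. The WT libraries are labelled WT with no allele or agent, and the ages of the WT and *Trdn-as* KO mice are given as adult. Each chromatin preparation came from the pooled ventricles of 2 hearts and holds all cell types of the tissue, so fewer cells with a bound site and less binding per cell cannot be told apart. No source says whether the 2 libraries of a genotype came from separate preparations, so p-values measure the spread between libraries, which may be technical. The genotypes also differed in signal on the sex chromosomes: peaks on Y summed to 0 in both *Trdn-as* KO libraries and to between 50 and 80 in the others. The sex of the mice is not given in the sources used here, and its part in the differences on chromosomes 1 to 19 was not tested.

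CTCF is a zinc finger protein that binds a long DNA motif and halts the cohesin ring, which places the borders of chromatin loops and topological domains. Most of its sites are occupied in many tissues, some lie at gene starts, and DNA methylation or a base change within the motif can abolish binding at a single site. Strong ChIP peaks tend to hold the motif, whereas weak peaks at active promoters often do not.

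Promoter windows that hold the CTCF core motif are printed first because they let the reader see the sequence that CTCF recognises at gene starts where its peaks were high. RefSeq start-site windows (GRCm38.p6, 250 bases before to 50 after a gene start) were searched on both strands, and 183 of 32851 windows held a match (0.557%). Of the 4803 tested peaks centred within 150 nt of a named gene start, 3787 had a window. The motif stood in 3 of 706 such peaks whose WT CTCF value was under 4 times the IgG value, both scaled to their library totals (0.425%), in 7 of 2253 at 4 to 8 times (0.311%), in 24 of 675 at 8 to 16 times (3.56%) and in 16 of 153 at 16 times or more (10.5%). By WT value alone it stood in 2.33% of the weakest of 5 classes, in 0.321% to 0.549% of the middle ones and in 3.42% of the strongest, so most strong peaks at gene starts had no match in the window. A match is a description of the letters and not a site shown to be bound. The motif-bearing windows of the 4 peaks with the highest WT values (1 chromosome not used) are shown 5′ to 3′ on the strand of the gene, 30 bases each, with the match in capitals. CTCF stood 7.15 times over IgG at *Fkbp2* and 14.1 to 15.5 times at the others. *Fkbp2* lies at 19:6979607-6979636 on the minus strand, *Car7* at 8:104534652-104534681 on the plus strand, *Dennd6b* at 15:89196634-89196663 on the minus strand and *Gaa* at 11:119267927-119267956 on the plus strand. The match runs as printed in *Car7* and *Gaa* and as the reverse complement in *Fkbp2* and *Dennd6b*.
Fkbp2: ctcctcagaGCCACCTAGTGGagatgtgtg
Car7: agcgcgcagCCAGTAGGGGGCgccgacgct
Dennd6b: gccacactaGCCACCTACTGGccgacccgg
Gaa: cgccctcagCCACTAGGGGGCgcagcgata

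CTCF at these 4 motif-bearing promoters did not pass the test between the knockouts. The *Fkbp2* peak held 248 and 262 normalized reads in the *Trdn-as* KO libraries, 249 and 261 in *Mettl3* KO and 237 and 223 in WT. The *Gaa* peak, at the start of the lysosomal alpha-glucosidase gene, held 192 and 184, 189 and 178, and 175 and 170 in the same order. The libraries of the knockouts overlapped at both peaks. The log2 fold change was -0.00 (SE 0.07) at *Fkbp2* and 0.04 (SE 0.08) at *Gaa*, with adjusted p-values of 1 and 0.837. The *Dennd6b* peak held 227 and 245, 230 and 215, and 218 and 197, and also overlapped (0.08, SE 0.08, adjusted p = 0.576). At *Car7*, a carbonic anhydrase gene, the knockouts did not overlap, with 200 and 196 against 189 and 185, and WT was higher, with 226 and 206 (0.08, SE 0.08, adjusted p = 0.580). Of the 3787 peaks with a window, 14 passed the test between the knockouts and none of these held the motif, against 50 of the 3773 others (1.33%). With so few peaks the shares cannot be told apart.

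The knockouts were separated at a small share of CTCF peaks. Between *Trdn-as* KO and *Mettl3* KO, 715 of 59341 tested peaks (1.20%) passed the test, limma on log2(value + 1) over the 6 CTCF libraries with an adjusted p under 0.05. CTCF was higher in *Trdn-as* KO at 466 of them (0.785%) and lower at 249 (0.420%). The libraries of the knockouts did not overlap at any of the 715. These peaks were picked on the same values, so this is a description, and the share over all tested peaks is not given here. The median log2 fold change was 0.77 at the higher and -1.08 at the lower peaks, against 0.09 over all tested peaks, and 137 higher and 142 lower peaks changed by at least 1 on the log2 scale. Fold changes are on the log2(value + 1) scale, which understates changes at low values.

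The number of calls depended on the libraries and on how the spread was modelled, and the split by direction depended on the scaling. The 2 *Mettl3* KO libraries agreed within about sampling noise. Their chi-square per peak averaged 0.913 with the estimated value of 1 read, against 1.56 for *Trdn-as* KO and 1.41 for WT. That estimate is uncertain for *Mettl3* KO, and another reading of the values gives 1.36. With the *Mettl3* KO libraries averaged and counted as 1 sample, that genotype has no spread of its own. Far fewer peaks passed then, with or without a robust estimate of the spread. Without 1 library at a time, 0 to 6 peaks passed, or 372 to 4130 with the robust estimate. Scaling by the median ratio over the tested peaks gave 392 higher and 689 lower, cyclic loess 416 and 709, and uniquely mapped reads 147 and 291, so more peaks were lower than higher under each of these. The knockouts did not overlap at the 715 peaks, so only the fits with another scaling could change a sign, and none did. The fits with a stricter filter tested only some of the 715, down to 91 with CTCF at least 4 times IgG. The peaks that passed in all 8 fits with the robust estimate had absolute log2 fold changes of at least 0.42, with a median of 1.28. These fits share their libraries and several leave 1 sample in a knockout, so the set is a description.

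**Figure D1:**
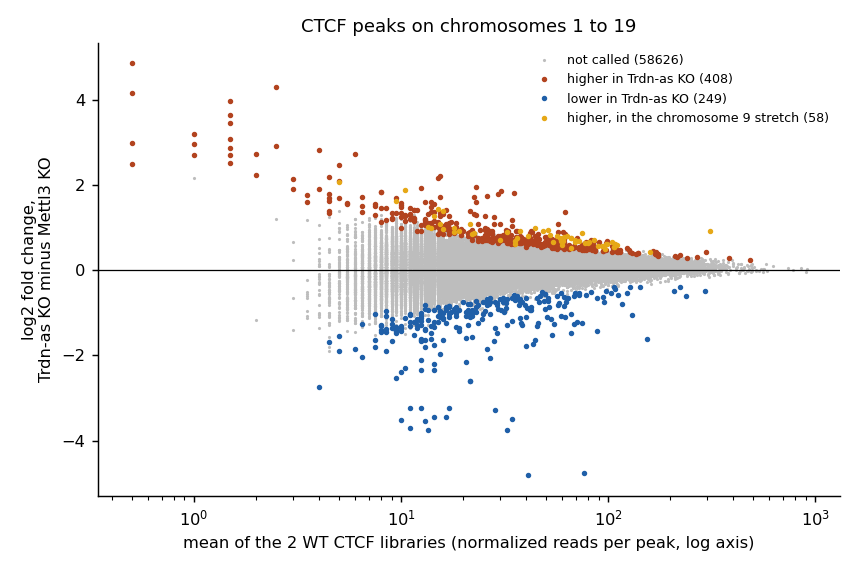
The log2 fold change of each tested CTCF peak on chromosomes 1 to 19 (*Trdn-as* KO minus *Mettl3* KO) is plotted against the mean of the 2 WT CTCF libraries in normalized reads, on a log axis, with 1 point a peak. Called peaks lie on both sides of 0 (408 higher in red, 249 lower in blue, and 58 higher in one stretch of chromosome 9 in yellow), and the scatter narrows toward the strong peaks.

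The clearest separations were peaks present in one knockout and nearly absent from the other. At 4 peaks both *Trdn-as* KO libraries held at most 3 normalized reads while both *Mettl3* KO libraries held at least 20, and at 6 peaks the reverse was seen. Both WT libraries held at least 20 at all 4 of the first kind and at most 3 at all 6 of the second, so at each of the 10 peaks WT matched *Mettl3* KO. The 6 peaks passed the filter on low values only through the *Trdn-as* KO libraries in which they are high, so they had to differ and their p-values are printed as a description. The 4 others would have passed it on the WT libraries alone, so the side of WT is read from these 4 only. Only 1 of the 10 is annotated to a promoter.

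The most significant peak lies at chr9:48606907-48607742 (GRCm39) within *Zbtb16*, which encodes the zinc finger repressor PLZF. It held 3 and 1 normalized reads in the *Trdn-as* KO libraries, 75 and 75 in *Mettl3* KO and 76 and 77 in WT. Its log2 fold change was -4.75 (SE 0.24, adjusted p = 9.18e-10). The peak was strong in 4 libraries and almost absent from both *Trdn-as* KO libraries.

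A peak at chr7:27641351-27641876, between genes and 12466 nt from *Zfp974*, held 0 and 1 in *Trdn-as* KO, 36 and 42 in *Mettl3* KO and 43 and 39 in WT. It fell by 4.82 on the log2 scale (SE 0.29, adjusted p = 9.98e-09). In *Kmt2e*, which encodes a member of the KMT2 family of SET domain proteins, the peak chr5:23695753-23696291 held 1 and 2, 25 and 28, and 38 and 31 (-3.49, SE 0.25, adjusted p = 1.84e-07). It is annotated to the promoter of a misc_RNA gene 3301 nt away. In *Ncapg2*, which encodes a condensin II subunit, chr12:116388971-116389390 held 1 and 2, 23 and 23, and 33 and 24 (-3.29, SE 0.27, adjusted p = 1.04e-06). All of these are peaks where WT and *Mettl3* KO carried CTCF.

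Among the 6 peaks seen only in *Trdn-as* KO, the strongest lies at chr13:120198321-120199029 in *Nim1k*, a serine/threonine kinase gene. It held 77 and 59 in *Trdn-as* KO, 2 and 3 in *Mettl3* KO and 2 and 3 in WT, with a log2 fold change of 4.30 (SE 0.31, adjusted p = 1.30e-07). A peak in *Knl1*, a kinetochore gene, at chr2:118932096-118932385 held 20 and 22, 1 and 1, and 2 and 1 (3.46, SE 0.46, adjusted p = 3.71e-04). The peak chr7:60377933-60378366, far from any listed gene, held 37 and 21 in *Trdn-as* KO and 0 in both *Mettl3* KO libraries, with 0 and 1 in WT (adjusted p = 1.82e-04), so no fold is given. The peak chr13:100730614-100731144, 1321 nt from *Marveld2*, a tight junction gene, held 25 and 27, 0 and 2, and 1 and 2 (3.96, SE 0.52, adjusted p = 3.71e-04). Pol II was also higher there, with 77 and 51 in *Trdn-as* KO, 6 and 3 in *Mettl3* KO and 4 and 2 in WT (log2 fold change 3.59, SE 0.65, adjusted p = 5.32e-04).

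**Figure D2:**
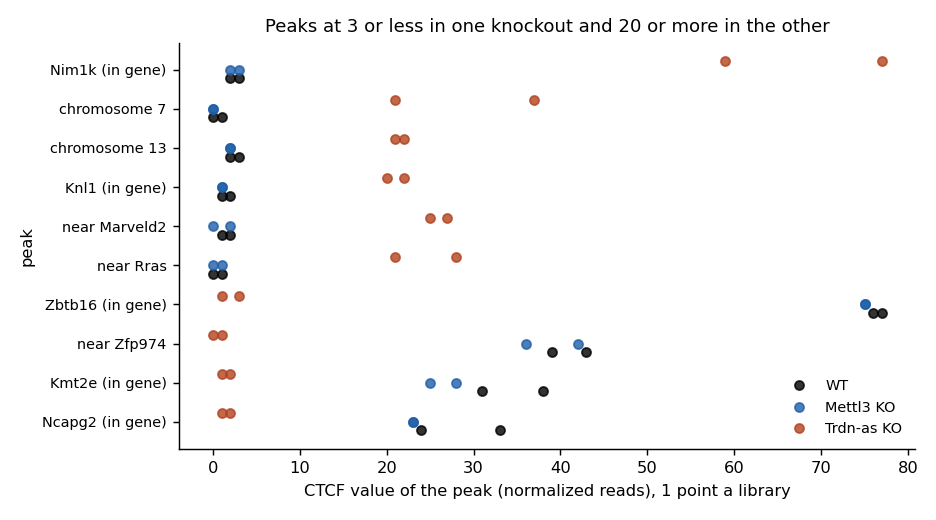
CTCF values in normalized reads are shown for the 10 peaks at most 3 in both libraries of one knockout and at least 20 in both of the other, with 1 point a library (WT black, *Mettl3* KO blue, *Trdn-as* KO red). At the lower 4 peaks the *Trdn-as* KO points lie between 0 and 3, and at the upper 6 they lie between 20 and 77, while WT lies with *Mettl3* KO at all 10.

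Graded differences made up most of the calls. In *Rgs7*, a gene for a regulator of G protein signalling, the peak chr1:174946457-174947127 held 63 and 70 in *Trdn-as* KO, 13 and 15 in *Mettl3* KO and 14 and 16 in WT (2.17, SE 0.17, adjusted p = 8.03e-07). In *Cadm3*, a cell adhesion gene on the same chromosome, the peak held 90 and 107, 25 and 30, and 37 and 33 (1.80, SE 0.15, adjusted p = 9.54e-07). In *Neo1*, the gene for the netrin receptor neogenin, it held 59 and 75, 18 and 15, and 22 and 24 (1.95, SE 0.17, adjusted p = 2.23e-06). The groups were apart by a wide margin at each, and the WT libraries lay near *Mettl3* KO. Other peaks named by their rank in this direction lie in *Tmem72* (1.85), *D630003M21Rik* (2.73) and *Cnbd2* (2.20) and near *Uchl1* (1.59), with adjusted p-values from 2.13e-06 to 7.17e-06. The *D630003M21Rik* peak passed the filter on low values only through the *Trdn-as* KO libraries, so it had to differ.

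In the opposite direction, a strong peak 2257 nt from *Ltbp4*, the gene for a TGF-beta binding matrix protein, at chr7:27000791-27002304, held 47 and 43 in *Trdn-as* KO, 144 and 135 in *Mettl3* KO and 171 and 138 in WT (-1.61, SE 0.11, adjusted p = 1.20e-07). A promoter peak of *Slc9a3r2*, which encodes a scaffold of the sodium/proton exchanger, held 59 and 59, 118 and 130, and 136 and 126 (-1.06, SE 0.10, adjusted p = 7.91e-06). Both peaks were cut down but not lost in *Trdn-as* KO. Peaks in *Sh3pxd2a* (-1.23), *Nuf2* (-1.26), *Trpc4ap* (-1.26) and *Colec12* (-1.29) were lower to a like degree, with adjusted p-values from 2.90e-05 to 9.21e-05.

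The 5 promoter and 5 other CTCF peaks with the highest WT values did not pass the test. So short a list says little, since 56 of the 5935 strongest peaks were called (0.944%). The promoter-annotated peak with the highest WT value, over *Setd1b*, an H3K4 methyltransferase gene, held 907 and 924 in *Trdn-as* KO, 914 and 894 in *Mettl3* KO and 926 and 893 in WT (log2 fold change 0.02, SE 0.04, adjusted p = 0.831). Over the 5 promoter and 5 other peaks with the highest WT values, among them peaks over *Tns2*, *Crip2*, *Plec* and *Ctif*, log2 fold changes ranged from -0.03 to 0.15 and adjusted p-values from 0.155 to 0.934.

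The share of calls hardly tracked strength, and the size of the difference fell with strength in step with the spread between replicates. Tested peaks were put into 5 equal classes by the mean of the WT libraries, which are in neither arm of the contrast, with WT medians of 10, 16.5, 29.5, 56 and 103 normalized reads. From the weakest to the strongest class, 1.15%, 1.17%, 1.57%, 1.27% and 0.859% of peaks were called, beside the 1.20% of all. Lower calls thinned out with strength, from 0.497% in the weakest to 0.185% in the strongest class, while the higher calls were 0.657% and 0.674% there. The weakest class holds peaks that entered through a high knockout library: its lower part, with WT values of 0.5 to 10, had 1.52% called and 4.36% that differed by at least 1 on the log2 scale, against 0.792% and 1.5% in its upper part. The strongest class had 0.295 percentage points fewer calls than the weakest. This difference turned to 0.244 more with the robust estimate of the spread, and ranged from -0.683 to 3.92 when 1 library at a time was left out of that fit, so it has no firm direction.

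The spread of the log2 fold change fell from an SD of 0.46 over the peaks of the weakest class to 0.15 in the strongest, and the share that differed by at least 1 on the log2 scale, called or not, fell from 2.93% to 0.0337%. The spread expected from the replicate differences fell alongside, from 0.30 to 0.09. The ratio of the observed to the expected spread was between 1.48 and 1.57 in all 5 classes. Median log2 fold changes rose from 0.02 in the weakest class to 0.12 in the strongest, a drift of about the size of the median over all peaks.

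Strength over the IgG background gave another picture, with fewer calls in the low than in the high classes. Peaks under 4 times IgG were called in 1.09%, those at 4 to 8 times in 1.06%, at 8 to 16 times in 1.42% and at 16 times or more in 1.27%. The higher calls were 0.536% of peaks in the first of these classes and 0.969% in the last, and the lower calls were 0.553% and 0.297%. The IgG libraries held an estimated 273483 to 813038 reads in peaks, against 6789490 to 10163600 in the CTCF libraries, so the IgG value of a single weak peak is imprecise.

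**Figure D3:**
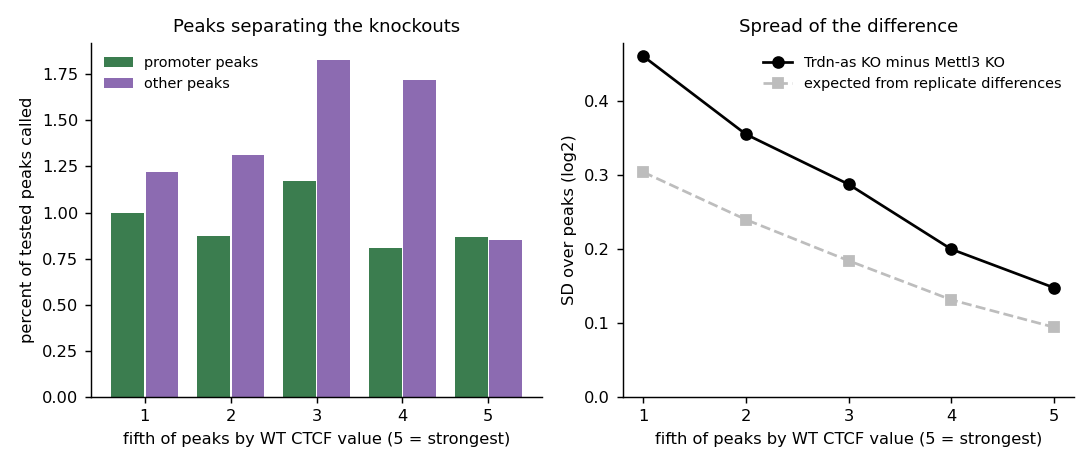
The left panel gives the percent of tested CTCF peaks called in each of 5 classes of WT CTCF value (5 = strongest) for promoter peaks (green) and other peaks (purple), and the right panel the SD of the log2 fold change over the peaks of each class (black) with that expected from replicate differences (grey). Other peaks exceed promoter peaks in classes 1 to 4 and not in class 5 (0.85% against 0.867%), and both spreads fall together from left to right.

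Peaks at promoters were called less often than other peaks. The study annotated a peak to a promoter where a gene start lay within 5000 nt, which takes in 24050 of the tested peaks. Of these, 224 were called (0.931%, 162 higher and 62 lower), against 491 of 35291 other peaks (1.39%, 304 higher and 187 lower). The difference was -0.46 percentage points. It was -0.183 with a replicate block, -0.15 with the *Mettl3* KO libraries averaged and the robust estimate, and -0.173 (without *Mettl3* KO 1) to -2.59 (without *Trdn-as* KO 1) when 1 library at a time was left out of the robust fit. At 8 times IgG or more it was -0.181. Without the chromosome 9 stretch described further on, the shares were 0.816% and 1.31%. Peaks are not replicates of a genotype, so no test was made over them. Among peaks with at least 4 times the IgG value in WT, taken on the normalized scale, the sign turned, to 0.273 points more at promoters with 77 calls in all.

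Within promoters the share of calls was lowest next to the gene start. Peaks centred within 250 nt were called in 34 of 7384 cases (0.46%), those at 251 to 1000 nt in 40 of 4850 (0.825%), at 1001 to 2500 nt in 54 of 4513 (1.2%) and at 2501 to 5000 nt in 86 of 6371 (1.35%). Beyond 5000 nt, where the edge of a peak but not its centre lies nearer, the share was lower again, with 10 of 932 (1.07%). The peaks nearest to a start were strong (WT median 50.75) yet had a median CTCF over IgG of 5.58, and those at 2501 to 5000 nt were weaker (26.5) with a ratio of 8.31. Promoters of protein_coding genes were called in 138 of 17180 peaks (0.803%), of lncRNA genes in 40 of 3399 (1.18%) and of processed_pseudogene entries in 19 of 1251 (1.52%).

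The gap between promoter and other peaks was seen where CTCF stood little above IgG and not where it stood far above. Under 4 times IgG, 0.759% of promoter and 1.31% of other peaks were called, and at 4 to 8 times 0.702% and 1.45%. At 8 to 16 times the shares were 1.24% and 1.51%, and at 16 times or more 1.33% and 1.24%. Promoter position and height over IgG thus moved together, and their separate parts were not tested.

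The class as a whole shifted little. The median log2 fold change was 0.07 at promoter and 0.12 at other peaks. Promoter peaks took 50.1% and 49.7% of the CTCF signal in the *Trdn-as* KO libraries, 50.9% and 50.7% in *Mettl3* KO and 50.4% and 51.1% in WT. The knockouts did not overlap, but differed by only 0.887 percentage points, with an exact permutation p of 0.3333 (two-sided, n = 2 a group), the smallest that 2 against 2 libraries allow. Among peaks at least 4 times IgG in WT the knockouts overlapped, with shares of 27.0% and 26.8% for *Trdn-as* KO beside 27.0% and 26.9% for *Mettl3* KO, and differed by -0.0956 points (exact permutation p of 0.6667). Over all peaks the 2 WT libraries lay almost as far from each other.

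The 34 calls within 250 nt of a gene start went in both directions, 20 higher and 14 lower. The *Zfp760* promoter peak, centred 82 nt from the start, held 63 and 60 in *Trdn-as* KO, 21 and 30 in *Mettl3* KO and 28 and 28 in WT (1.26, SE 0.17, adjusted p = 3.91e-04). Pol II did not pass the test there, with 233 and 161, 178 and 187, and 162 and 172 (0.09, SE 0.21, adjusted p = 0.870). CTCF therefore separated the knockouts at this start where Pol II overlapped. At *Zfp677*, on the same chromosome, CTCF was lower, with 60 and 64, 102 and 106, and 95 and 95 (-0.74, SE 0.11, adjusted p = 8.42e-04), and Pol II did not pass (-0.69, adjusted p = 0.161). At *Ifi211*, an interferon-inducible gene, CTCF held 9 and 10, 22 and 26, and 24 and 23 (-1.25, SE 0.20, adjusted p = 2.20e-03), and Pol II was lower as well (-1.41).

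The side on which WT lay depended in part on the filter on low values. WT lay nearer to *Mettl3* KO at 258 of the 466 higher and at 170 of the 249 lower peaks. Of the peaks that changed by at least 1 on the log2 scale, WT was nearer to *Mettl3* KO at 96 of 137 higher and 112 of 142 lower, and at a change of at least 2 at 27 of 27 and 26 of 27. WT is in neither arm of the contrast, but it shares the estimate of the spread. However, 49 higher peaks, 25 of the 27 with a change of at least 2 among them, reached 10 normalized reads in the *Trdn-as* KO libraries only, so their low WT values were set by the filter, and 18 lower peaks passed through the *Mettl3* KO libraries only. Among peaks with at least 10 in both WT libraries, WT was nearer to *Mettl3* KO at 201 of 402 higher and 150 of 215 lower peaks. With a change of at least 1 this held at 40 of 74 higher and 92 of 109 lower, and with at least 2 at 2 of 2 and 22 of 22.

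Calls were uneven along the genome. Chromosome 9 had 131 calls among 3342 tested peaks (3.92%), chromosome 18 had 46 of 1942 (2.37%) and chromosome 1 had 68 of 3954 (1.72%). At the other end, chromosome 4 had 10 of 4000 (0.25%) and chromosome 10, which carries *Trdn* and *Trdn-as*, had 19 of 3076 (0.618%).

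**Figure D4:**
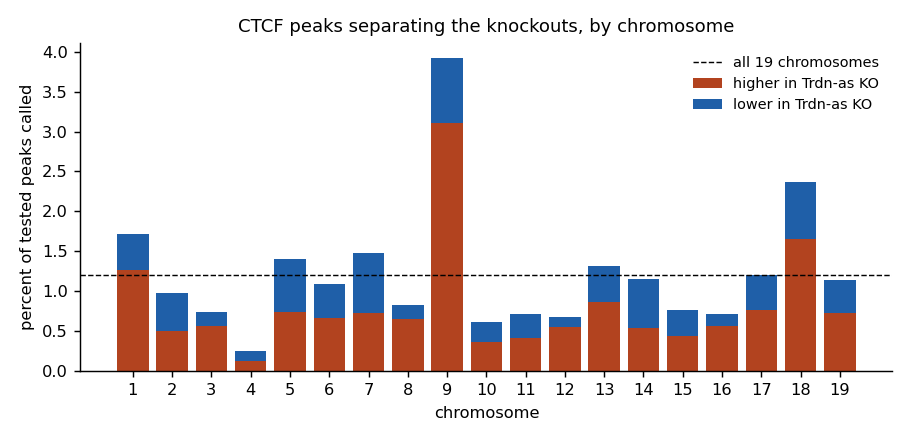
Bars give the percent of tested CTCF peaks called on each chromosome, split into peaks higher (red) and lower (blue) in *Trdn-as* KO, with a dashed line at the 1.20% of all 19 chromosomes. Chromosome 9 stands out at 3.92%, followed by chromosome 18 at 2.37%, and chromosome 4 is lowest at 0.25%.

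A single stretch of chromosome 9, from 34 to 39 Mb, moved as a block. It held 111 tested peaks, 58 of them called, all higher in *Trdn-as* KO, and 110 of the 111 log2 fold changes were positive, with a median of 0.66. The 215 peaks in the flanks on either side had 1 call and a median of 0.08. Promoter peaks (28 of 44 called, median 0.67) and other peaks (30 of 67 called, median 0.65) of the stretch had similar medians, while the share called was higher at promoters (63.6% against 44.8%). The stretch was picked after the values were seen, so no test was made of it.

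The shift was as large in libraries made with the other antibodies. Set against the flanks and the WT mean, CTCF signal in the stretch was 1.44 and 1.42 times in *Trdn-as* KO and 0.966 and 0.979 times in *Mettl3* KO. Pol II signal was 1.40 and 1.44 times in *Trdn-as* KO and 1.02 and 1.01 times in *Mettl3* KO. The IgG control, which has no target, was 1.46 times in its *Trdn-as* KO library and 0.96 times in *Mettl3* KO. All 5 *Trdn-as* KO libraries were thus higher across this stretch, whatever was precipitated.

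The peak with the second smallest adjusted p among the higher calls lies in this stretch, at the promoter of *Esam*, an endothelial cell adhesion gene (chr9:37437837-37443119). It held 416 and 480 in *Trdn-as* KO, 238 and 235 in *Mettl3* KO and 320 and 299 in WT (0.92, SE 0.07, adjusted p = 4.92e-07), and Pol II was higher too (0.67, adjusted p = 2.44e-03). Other called promoters of the stretch belong to *Kirrel3*, *St3gal4*, *Foxred1*, *Chek1*, *Pknox2*, *Robo3* and *Robo4*. Of the endothelial marker genes outside the stretch, 4 had a tested promoter peak (*Cdh5*, *Kdr*, *Tek* and *Tie1*), and none was called, beside the 0.931% of all promoter peaks. Their log2 fold changes ran from 0.05 to 0.25, with a median of 0.17 against 0.07 over all promoter peaks, and the part of cell composition was not tested. Without the stretch, 657 of 59230 peaks were called (1.11%, 408 higher and 249 lower).

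**Figure D5:**
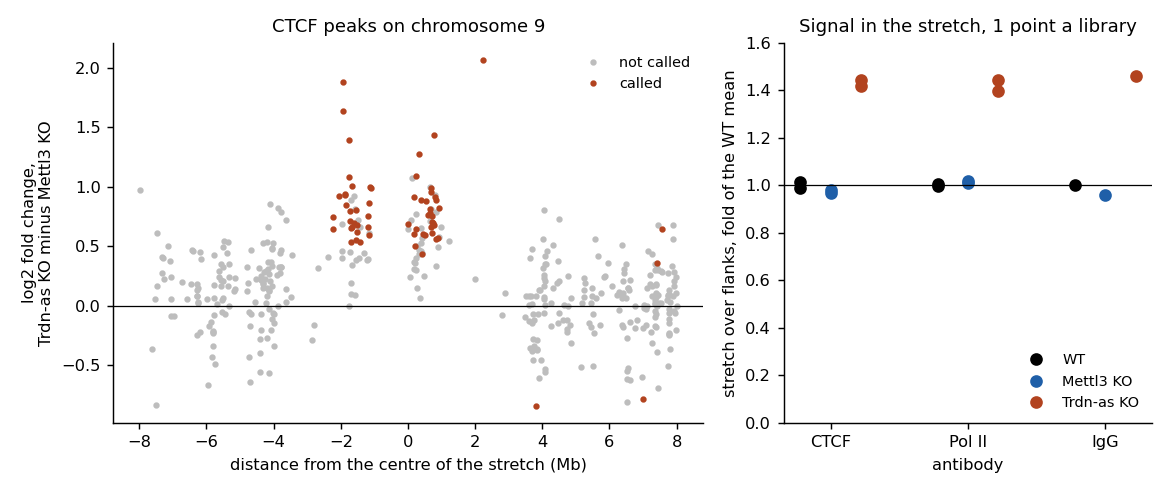
The left panel plots the log2 fold change of CTCF (*Trdn-as* KO minus *Mettl3* KO) for each tested peak against its distance from the centre of the chromosome 9 stretch in Mb, with called peaks in red. The right panel gives the summed signal of the stretch over that of its flanks as a fold of the WT mean, 1 point a library, where the *Trdn-as* KO libraries lie between 1.40 and 1.46 for CTCF, Pol II and IgG and the other libraries lie near 1.

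Outside that stretch the calls also gathered in places, but in both directions. Of 1191 windows of 2 Mb with a tested peak, 826 had no call and 27 had 5 or more, 2 of them in the stretch. The other 25 held 170 of the calls among 2231 tested peaks (7.62%, 101 higher and 69 lower), and 21 of the 25 held calls of both directions. The fullest were chromosome 1 from 172 to 174 Mb (13 of 64 peaks), which holds *Cadm3* and *Ifi211*, chromosome 17 from 24 to 26 Mb (12 of 143), which holds *Slc9a3r2*, and chromosome 5 from 24 to 26 Mb (10 of 103). WT lay nearer to *Mettl3* KO at 146 of the 170 (85.9%), against 235 of the 487 calls outside both the stretch and the 27 windows (48.3%). The crowded windows were chosen by their calls and 16 of the 25 lie on chromosomes 1, 7, 9 and 18, so these shares are a description.

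CTCF calls at the loci that the mice were built on stand beside the 1.20% of all tested peaks, and they are too few to compare. At the *Trdn-as* promoter (chr10:33129849-33132974) CTCF held 36 and 40 in *Trdn-as* KO, 51 and 52 in *Mettl3* KO and 52 and 49 in WT (-0.43, SE 0.13, adjusted p = 0.114). Pol II, a check of the labels, held 140 and 100 in *Trdn-as* KO, 503 and 491 in *Mettl3* KO and 530 and 595 in WT (-2.06, SE 0.18, adjusted p = 6.54e-13). The libraries labelled *Trdn-as* KO thus had less Pol II at the targeted promoter than all others.

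Over all tested peaks 1.20% were called, and 5 peaks are too few to set against that share. Of the 5 tested peaks in or near *Trdn*, whose protein anchors calsequestrin to the ryanodine receptor, 1 was called. It lies in the gene at chr10:33074110-33074633 and held 10 and 9, 21 and 19, and 16 and 16 (-1.0, SE 0.21, adjusted p = 0.0244), with Pol II lower as well (-2.97, adjusted p = 0.0163). A peak near the far end of the gene, chr10:33246507-33246910, held 19 and 23 in *Trdn-as* KO, 11 and 10 in *Mettl3* KO and 17 and 12 in WT, and missed the threshold (0.93, SE 0.23, adjusted p = 0.0513). Over the 10 Mb on either side of *Trdn-as*, 3 of 363 peaks were called (0.826%), against 16 of 2713 on the rest of chromosome 10 (0.59%).

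The *Mettl3* promoter peak held 43 and 39 in *Trdn-as* KO, 45 and 49 in *Mettl3* KO and 52 and 44 in WT (-0.19, SE 0.14, adjusted p = 0.470). It checks nothing about the deletion, since only part of the gene is removed and only in cardiomyocytes. Within 10 Mb of *Mettl3*, 3 of 549 peaks were called (0.546%), in *Tmem260*, at *Trav10n* and over *Myh6*, against 23 of 1697 on the rest of chromosome 14 (1.36%). The promoter peak of *Esr1*, the oestrogen receptor gene from which the ligand-binding part of MerCreMer derives, held 10 and 6, 8 and 9, and 9 and 11 (-0.11, SE 0.30, adjusted p = 0.866).

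The *Myh6* peak stands out because the Cre transgene carries the promoter of this gene. It spans 32955 nt (chr14:55181949-55214903) and held 340 and 322 in *Trdn-as* KO, 455 and 480 in *Mettl3* KO and 299 and 289 in WT (-0.50, SE 0.06, adjusted p = 1.48e-04). Both *Mettl3* KO libraries lay above all others. CTCF was only 1.51 times IgG there, the IgG values were 1057, 1354 and 1003 for *Trdn-as* KO, *Mettl3* KO and WT, and Pol II was also lower in *Trdn-as* KO (-0.39, adjusted p = 4.09e-03). The part of the transgene in this value was not tested.

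Gene groups of the heart were compared by the promoter peak with the highest WT value of each gene, beside the 0.931% of all tested promoter peaks that were called. Of 19 contractile and calcium handling genes, 1 rose (*Pln*) and 1 fell (*Myh6*), with a median log2 fold change of -0.00, against 0.07 over all promoter peaks. These 2 calls are a larger share than that of all promoter peaks, in a short list that was chosen with results known. *Pln*, which encodes the calcium pump inhibitor phospholamban, held 478 and 497 in *Trdn-as* KO, 410 and 414 in *Mettl3* KO and 500 and 470 in WT (0.24, adjusted p = 0.0328). The libraries did not overlap, but this is the smallest called change. *Ryr2*, the calcium release channel gene, held 123 and 119, 138 and 122, and 106 and 110 (-0.10, adjusted p = 0.591), and *Atp2a2*, the calcium pump gene, differed by 0.07 (adjusted p = 0.639). None of 4 cardiac stress genes was called (median 0.10).

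Of 15 circadian clock genes, 2 rose and none fell, with a median of 0.12, where 0.674% of all promoter peaks were called higher and their median was 0.07. The share is again above that of all promoter peaks, in a list of the same kind. *Dbp*, a PAR bZIP factor gene driven by the clock, held 312 and 314 in *Trdn-as* KO, 227 and 240 in *Mettl3* KO and 297 and 296 in WT (0.42, SE 0.06, adjusted p = 1.74e-03). *Hlf*, of the same family, held 76 and 88, 59 and 55, and 76 and 70 (0.51, SE 0.12, adjusted p = 0.0415). *Mettl3* KO was the low genotype at both, and Pol II was higher in *Trdn-as* KO at both as well (0.76 and 0.83). *Per3* held 90 and 94, 66 and 70, and 98 and 93 and missed the threshold (0.43, adjusted p = 0.0524), and *Npas2*, which peaks at the opposite phase, held 81 and 73, 97 and 97, and 69 and 64 (-0.33, adjusted p = 0.135). The hour at which hearts were taken is not given in the sources used here, and its part was not tested.

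Among CTCF's own partners and classical targets no promoter was called, which is near the background for lists of this length, since 0.931% of all promoter peaks were called. None of 8 *Ctcf* and cohesin genes with a tested promoter peak passed (median 0.05), none of 9 imprinted genes (median 0.12) and none of 42 clustered protocadherin genes, whose promoters are chosen by CTCF and cohesin (median 0.22, from -0.81 to 0.81). The *H19* promoter peak, the textbook imprinted CTCF target, held 170 and 162 in *Trdn-as* KO, 158 and 147 in *Mettl3* KO and 164 and 154 in WT (0.12, adjusted p = 0.443). Of the marker genes with a tested peak, the only calls were *Myh6* and *Pln* among 6 of cardiomyocytes. None was made among 4 endothelial, 5 fibroblast, 1 macrophage, 3 mural and 3 adipocyte genes, whose medians lay between -0.05 and 0.17. As a check of the tissue, Pol II per 1000 nt of peak was 231 to 351 normalized reads at *Myh6*, 251 to 333 at *Actc1*, 229 to 324 at *Pln*, 140 to 224 at *Tnnt2*, 112 to 158 at *Ryr2* and 70.0 to 104 at *Nppa* over the 6 Pol II libraries. It was 75.6 to 175 at *Col1a1*, 145 to 257 at *Tcf21*, 127 to 189 at *Kdr* and 117 to 221 at *Pdgfrb*. Some markers of other heart cell types thus carried as much Pol II as some of cardiomyocytes. Others lay below every cardiomyocyte marker, with 13.7 to 34.2 at *Cdh5*, 35.1 to 49.6 at *Myh11*, 2.03 to 20.3 at *Adipoq* and 4.02 to 9.82 at *Plin1*.

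Pol II, measured in its own libraries, differed in the same direction as CTCF at most of the called peaks that were tested for both. Over all peaks tested for both, 624 of 39926 (1.56%) were called for Pol II, and 62.1% had a negative Pol II log2 fold change, with a median of -0.17. At the CTCF peaks lower in *Trdn-as* KO, 173 were tested for Pol II, 43 were called, all lower, and 163 had the same sign (94.2%, median -0.85). At the higher CTCF peaks outside the chromosome 9 stretch, 169 were tested, 12 were called, all higher, and 119 had the same sign (70.4%, median 0.41). IgG signal as a share of the library, summed over these peaks, was 0.704 times in *Trdn-as* KO relative to *Mettl3* KO at the lower and 1.11 times at the higher peaks. Over all peaks, IgG held an estimated 5.19% of the uniquely mapped reads in *Trdn-as* KO and 5.71% in *Mettl3* KO, with 1 library each. A control with no target thus moved in the direction of CTCF at the called peaks, and its part in the calls was not tested.

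The 55 peaks called for both outside the stretch included promoters of named genes. The largest promoter difference was at *Lefty1*, which encodes a Nodal inhibitor, where CTCF was low and held 15 and 13 in *Trdn-as* KO, 3 and 3 in *Mettl3* KO and 2 and 4 in WT (1.90, SE 0.39, adjusted p = 0.0205) and Pol II differed by 3.91. This peak passed the filter only through the *Trdn-as* KO libraries, so it had to differ and its p-value is a description. At *Olfml2b*, a matrix protein gene, CTCF held 10 and 10 in *Trdn-as* KO, 36 and 32 in *Mettl3* KO and 26 and 30 in WT (-1.67, SE 0.18, adjusted p = 3.56e-05) and Pol II differed by -2.36. At *Depdc1b*, a cell cycle gene, CTCF held 32 and 36, 78 and 68, and 64 and 55 (-1.08, SE 0.14, adjusted p = 2.36e-04). At *Thoc1*, which encodes an mRNA export factor, it held 63 and 55, 92 and 95, and 94 and 82 (-0.66, SE 0.12, adjusted p = 5.82e-03). At *Olfml2b*, *Depdc1b* and *Thoc1* the *Trdn-as* KO libraries lay below those of both other genotypes. At *Ccn2*, a profibrotic growth factor gene, CTCF held 103 and 97 in *Trdn-as* KO, 138 and 134 in *Mettl3* KO and 114 and 103 in WT (-0.44, SE 0.10, adjusted p = 0.0300). At *Tmem45a* it held 9 and 7, 19 and 18, and 11 and 14 (-1.12, SE 0.24, adjusted p = 0.0266), and *Mettl3* KO stood above WT at both. A peak 6020 nt from *Col1a1*, the collagen gene of fibroblasts, held 31 and 23, 50 and 42, and 29 and 25 (-0.76, SE 0.17, adjusted p = 0.0369) with Pol II at 85 and 67, 194 and 163, and 65 and 68. The promoter peaks of the 5 fibroblast markers were not called (log2 fold changes from -0.32 to 0.11), while their median Pol II log2 fold change was -0.57, and the part of cell composition was not tested.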

How the data were processed

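Ventricular chromatin of 3 genotypes was precipitated with antibodies against CTCF and Pol II (2 libraries a genotype each) and with IgG (1 each). The 3 input libraries were not analysed here. According to the labels and methods, the authors trimmed reads with Trimmomatic 0.39, aligned them with STAR 2.7.11b to GRCm39 (mm39), removed duplicates with Picard 3.1.1, called peaks over input with MACS, unified them over all samples and counted reads per peak with featureCounts. The deposited values are a score: reads per peak normalized with DESeq2 1.36.0 and rounded, so they are not counts, and depth was estimated from their steps. Peaks were annotated by the authors to gene starts within 5000 nt.

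Values were log2-transformed after adding 1 and tested with limma 3.58.1 (R 4.3.3), since a count test could not be used. The model held the 6 libraries of an antibody, genotype alone as a term and a variance trend. Peaks with at least 10 in at least 2 libraries entered (60649 with the sex chromosomes), p-values were Benjamini-Hochberg adjusted over all of them, and chromosomes 1 to 19 are reported. Per-library shares were compared by exact permutation with scipy 1.17.1. In data simulated for the CTCF contrast between the knockouts with 200 changed among 60649 peaks, 93% of 2-fold and 100% of 4-fold changes were recovered with 0 false calls. The changed peaks were drawn from those with higher mean values only, and every library was simulated with the same spread. The real libraries differed in spread, so these shares cannot be carried over to weak peaks or to the calls.

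Named peaks are the 10 higher and 10 lower calls of smallest adjusted p and, per direction, the 10 with the largest change at a mean of at least 50, the 5 strongest promoter and 5 strongest other peaks in WT, the peaks of *Trdn* and within 5000 nt, the promoters of *Trdn-as*, *Mettl3*, *Myh6* and *Esr1*, and the strongest promoter peak of each listed gene. Other peaks named, such as those at most 3 in one knockout, those of the chromosome 9 stretch, those at gene starts and those also called for Pol II, were chosen after their values were seen. The comparison, the named peaks and the lists (CTCF and cohesin, contractile and calcium, stress, clock, imprinted, protocadherin and cell type markers) were chosen with earlier results of these data known. Gene positions are those of the deposited table, and a peak named as lying in a gene overlaps its listed interval. A genome of the build of the files was not used here, so no peak sequence is printed. Promoter windows came from RefSeq and were matched by symbol.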

Additional observations from a re-analysis of the deposited data

Results flagged for a closer look

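Chromosome X was not part of the comparison. There, 109 of 1304 tested CTCF peaks (8.36%) passed the test between the knockouts in limma, and all 109 were higher in *Trdn-as* KO, with a median log2 fold change of 0.21 over the X peaks. X peaks took 1.62% and 1.64% of the CTCF values in *Trdn-as* KO, 1.41% and 1.41% in *Mettl3* KO and 1.44% and 1.42% in WT. Peaks on Y summed to 0 and 0 in *Trdn-as* KO, 51 and 50 in *Mettl3* KO and 79 and 80 in WT. Sex was not given for these mice, and its part in the autosomal calls was not tested.

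The IgG library of *Trdn-as* KO, which enters no comparison of CTCF, was 1.46 times the WT library in the chromosome 9 stretch, set against the flanks. The *Mettl3* KO library was 0.96 times WT. There is 1 IgG library a genotype.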

How the results depend on the processing

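The counts of calls, both differences in percent called, the difference in medians and the log2 fold changes of the named peaks were recomputed under the alternatives, those with the robust estimate, averaged *Mettl3* KO libraries, 8-fold IgG limit or without the chromosome 9 stretch having been added after seeing the data. The main values were 715 calls (466 higher, 249 lower), a percent called of -0.46 for promoter minus other peaks and of -0.295 for the strongest minus the weakest class, and a difference in median log2 fold change of -0.05 for promoter minus other peaks. With the knockout libraries alone limma called 7 peaks (5 and 2), with differences of -0.00585 and -1.42e-06. Without the variance trend it called 201 (95 and 106, -0.213 and -0.876), and without a filter 44 (17 and 27, -0.00692, 0.0252 and a median difference of -0.0237). At a filter of 50 there were 103 lower calls (-1.63, -1.49 and -0.0846). Median ratio scaling gave 1081 calls with 689 lower, cyclic loess 1125 with 709 lower, and mapped reads 438 with 147 higher and -1.39 between strength classes. Peaks at least 4 times IgG gave 77 calls (55 and 22, 0.273, -0.564 and -0.0117), and those at least 8 times IgG per library total 132 lower calls and -0.181. At an adjusted p under 0.01, 243 passed (141 and 102, -0.0943). The robust estimate gave 1728 (1224 and 504, -0.974 and 0.244). Averaging the *Mettl3* KO libraries gave 0 calls, 0 higher and 0 lower, and differences of 0 and 0, and with the robust estimate 270 (168 and 102, -0.15). The prior degrees of freedom were 14.7 in the main model and 2.75 to 3.63 without 1 library.

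With a replicate block 309 peaks were called (176 and 133, -0.183), all among the 715. The libraries share only a number: over 59341 peaks the replicate differences of the knockouts correlated at -0.00878, and those of WT at -0.239 with *Trdn-as* KO and at 0.00899 with *Mettl3* KO. Leaving out 1 library at a time gave 0 (without *Mettl3* KO 1) to 6 calls, and with the robust estimate 372 (without *Mettl3* KO 1) to 4130 (without *Trdn-as* KO 1). Over all of these fits higher calls ran from 0 to 2861, lower calls from 0 to 1269, the promoter difference from -2.59 to 0 and the strength difference from -0.683 to 3.92. Where a value moved, the cause was not tested. No called named peak changed sign under another scaling, and the other fits could not change a sign where the knockouts did not overlap. The promoter share of signal had only its own 3 alternatives. The Pol II calls and the values by distance, IgG class, window, chromosome 9 stretch, WT side and gene list rest on 1 model and were not refitted. Depth limits single weak peaks, where a difference of a few reads was not detectable.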
